A study of Mus musculus with 6 samples.

Results

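The 6 genes described here encode the angiopoietin ligands and the Tie receptors with a receptor phosphatase and a matrix protein linked to the same pathway: Angpt1, Angpt2, Tek (Tie2), Tie1, Ptprb and Svep1. They were chosen by name, with their levels in the compared groups already known, from the 55401 genes of the deposited count table. All 6 are listed there, and all 6 passed the filter on low counts that left 18438 genes for testing. Kidney ECs (CD31+CD45- cells) were sorted from male mice, with 3 libraries labelled CTRL (Cre -/-; Rbpjf/f) and 3 labelled RbpjΔEC (Cre +/-; Rbpjf/f). Both groups came from the same mouse line and carried the floxed Rbpj alleles, and only the RbpjΔEC mice carried the tamoxifen-activated CreERT2, which the endothelial Cdh5 promoter drives in ECs of every vessel type. Mice of both groups received 5 injections of 1.5 mg tamoxifen at 8 weeks of age, and the kidneys were taken 12 weeks after induction, with 21 weeks given as the age. Rbpj encodes the DNA-binding factor through which Notch receptors act on transcription, and the series asked what its loss in adult ECs does to their expression profile.

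Tek is a receptor tyrosine kinase found on blood and lymphatic ECs. Angpt1, secreted mostly by cells around the vessel such as mural cells and, in the kidney, podocytes, activates it and keeps the endothelial barrier tight, whereas Angpt2, made by ECs themselves and stored in Weibel-Palade bodies, can oppose Angpt1 or act as a weak agonist. Tie1 pairs with Tek without a strong ligand of its own, Ptprb (VE-PTP) removes phosphate from Tek, and Svep1 is a large extracellular protein that binds Tie1 and is needed in lymphatic vessels.

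The groups rest on the labels, and values listed by library run from replicate 1 to 3 in each group. Rbpj had 28.1, 29.7 and 29.8 CPM (read counts scaled to the size of each library with edgeR's TMM factors) in the CTRL mice and 28.9, 26.1 and 29.6 CPM in the libraries labelled RbpjΔEC, and the groups overlapped. Counts over the whole gene do not show the floxed part, so this checks nothing. Hey1, a Notch target, had 16.7, 19.9 and 22.6 CPM in CTRL and 11.5, 8.92 and 14.6 CPM in RbpjΔEC, with every RbpjΔEC library below every CTRL library, as for 11.6% of all tested genes. Its log2 fold change of -0.76 did not pass the test across all genes at a threshold of 0.05 (edgeR adjusted p = 0.0722). Total counts were between 39649171 and 47726850, which puts 3 counts at 0.0634 to 0.0749 CPM. CTRL 1 had counts on 33764 genes and the other libraries on 25629 to 26785. All 12 endothelial markers were tested, and their sum was between 19737 and 21649 CPM in CTRL, so that the markers of the labelled cell type were abundant.

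The set split into abundant and scarce transcripts. Tek, Ptprb and Tie1 were among the most abundant transcripts of these cells, Angpt2 was intermediate, and Angpt1 and Svep1 were scarce. Since transcripts differ in length, levels between genes are given as CPM per kb of exon. In CTRL, Tek had 416.0 ± 23.2, Ptprb 394.4 ± 29.3 and Tie1 211.9 ± 9.58 CPM per kb (SD, n = 3). This placed Tek at rank 33, Ptprb at rank 36 and Tie1 at rank 83 among the 17910 tested genes with an annotated length. Angpt2 had 18.6 ± 2.94, Angpt1 1.50 ± 0.273 and Svep1 0.0868 ± 0.0360 CPM per kb in CTRL, at ranks 2098, 11021 and 17400.
Tek and Ptprb were the only neighbours in this order whose libraries overlapped in CTRL, with 389.6 to 433.2 against 360.6 to 411.6 CPM per kb. Their order also depended on the length used, since with the longest transcript in place of all exons Ptprb came to 441.4 and Tek to 421.2 CPM per kb in CTRL. In RbpjΔEC the order of the 6 genes was the same and no neighbours overlapped, with 372.1 ± 14.9 CPM per kb for Tek, 331.4 ± 15.9 for Ptprb and 198.1 ± 19.5 for Tie1 (SD, n = 3). The 6 genes together took 0.834% of the counts in CTRL and 0.723% in RbpjΔEC.

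**Figure D1:**
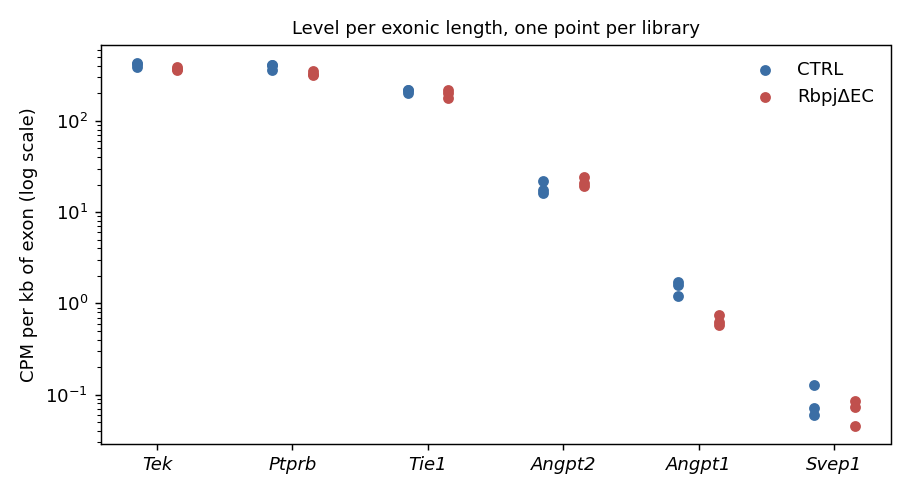
Level of each gene in CPM per kb of exon on a log axis, with 1 point for each library, CTRL in blue and RbpjΔEC in red. Over the 6 libraries Tek, Ptprb and Tie1 lie between 177.5 and 433.2 CPM per kb, Angpt2 between 16.4 and 24.0, Angpt1 between 0.582 and 1.73 and Svep1 at 0.128 or less.

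Promoter windows of RefSeq (GRCm38.p6, 250 bases before to 50 after the start) were matched for 3 of the 6 genes, Tek, Tie1 and Svep1. Those of Angpt1, Angpt2 and Ptprb were not analysed here. The windows of the paired receptors, Tek and Tie1, are shown because these genes are the defining members of the set, with letters in capitals where a searched motif lies: TGGGAA, the core of RBPJ sites, GGAA, the core of ETS sites, TGATAA and AGATAA of GATA sites, and GTAAACA of forkhead sites, each on both strands. Tek lies on the plus strand of chromosome 4 (window chr4:94739039-94739338) and Tie1 on the minus strand of the same chromosome (window chr4:118489800-118490099), both written 5′ to 3′ on the strand of the gene.
Tek: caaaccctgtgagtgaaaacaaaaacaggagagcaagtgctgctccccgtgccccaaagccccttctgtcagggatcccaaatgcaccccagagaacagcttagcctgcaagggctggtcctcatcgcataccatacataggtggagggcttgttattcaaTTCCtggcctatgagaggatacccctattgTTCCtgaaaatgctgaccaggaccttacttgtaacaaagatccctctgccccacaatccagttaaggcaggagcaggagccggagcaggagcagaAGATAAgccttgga
Tie1: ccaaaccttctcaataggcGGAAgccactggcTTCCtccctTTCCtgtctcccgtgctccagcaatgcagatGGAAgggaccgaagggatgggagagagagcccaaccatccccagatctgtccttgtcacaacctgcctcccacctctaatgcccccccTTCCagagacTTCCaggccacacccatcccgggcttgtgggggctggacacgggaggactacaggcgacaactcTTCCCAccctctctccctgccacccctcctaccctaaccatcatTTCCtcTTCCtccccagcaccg
The Tek window held TGGGAA on neither strand. It held AGATAA with its first base at position 37 after the start, and GGAA on the other strand at 2 places. The Tie1 window held TGGGAA on the other strand, read as TTCCCA from position -16, and GGAA on the same strand at 2 places and on the other strand at 7 places, of which 1 lies in the TTCCCA. The Svep1 window, not printed, held TGGGAA on the strand of the gene from position -117. Of 32851 promoter windows of this length, 25.6% held TGGGAA, 96.0% GGAA, 11.2% AGATAA, 9.05% TGATAA and 3.65% GTAAACA on either strand, and the last pair was in none of the 3 windows. Positions count from the RefSeq start. For Tek this is the first base of the gene span given below, but for Tie1 and Svep1 it lies inside that span. These matches describe the letters of the windows only.

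Of the ligands, Angpt1 differed most between the groups. Angpt1 (ENSMUSG00000022309.9, chromosome 15 of GRCm38, 42424723 to 42676977, minus strand) had 6.26, 9.02 and 8.22 CPM in the CTRL mice (251, 427 and 347 counts) and 3.28, 3.03 and 3.89 CPM in the RbpjΔEC mice (147, 127 and 156 counts). Every RbpjΔEC library lay below every CTRL library, with a mean of 3.40 ± 0.445 CPM against 7.83 ± 1.42 CPM (SD, n = 3) and a ratio of 0.434. The log2 fold change was -1.20 (standard error 0.194), and it lay between -1.35 and -1.10 when each library was left out in turn. Because the genes were chosen with this contrast known, no test is given for any of the 6.
Like Angpt1, markers of mural and stroma cells, which the sort should have removed, were lower in RbpjΔEC. Among 10 tested mural markers (of 11 listed), all 10 had a negative log2 fold change, with a median of -1.12 against 0.01 over all tested genes. At an adjusted p under 0.05 (edgeR quasi-likelihood, or QL, test, Benjamini-Hochberg over all tested genes), 3 fell, namely Acta2, Myh11 and Rgs5, and 0 rose. Over all tested genes, 0.559% fell by this rule. Without adjustment, 8 of the 10 were lower and 0 higher at a p under 0.05, against 8.62% lower and 8.88% higher over all tested genes. Acta2, the actin of smooth muscle, had 9.43, 9.76 and 11.5 CPM in CTRL and 4.39, 2.57 and 5.52 CPM in RbpjΔEC. The summed mural markers ranged from 246.2 to 324.3 CPM in CTRL and from 194.9 to 222.4 CPM in RbpjΔEC, and none was at 0 in any library. Without Mcam, which ECs express as well, the sums were 114.2, 93.0 and 87.7 CPM in CTRL and 45.7, 36.2 and 58.4 CPM in RbpjΔEC. The ratio of means was 0.476, and this split was chosen after the values were seen. In CTRL, replicate 1 had the highest of these sums and the lowest Angpt1. In RbpjΔEC the sums and Angpt1 had the same order. All 4 tested stroma markers (of 7) also had negative values, with a median of -1.58 and summed levels of 4.94 to 7.38 CPM in CTRL and 1.62 to 3.12 CPM in RbpjΔEC, 1 of them (Pdgfra) past the threshold and 2 lower without adjustment, while Lum was at 0 in 5 libraries. Of 7 podocyte markers, 5 had negative values, 0 passed in either direction in the edgeR QL test (1 higher and 1 lower without adjustment, 14.3% each) and the median was -0.66. Podxl, also an endothelial gene, made up most of their sum of 3231 to 3604 CPM in CTRL and 2652 to 2934 CPM in RbpjΔEC. The part of these cells in the Angpt1 difference was not tested, and in bulk RNA fewer cells of a type and less RNA per cell cannot be told apart.
The annotation places the antisense gene Gm17473 on the other strand over 737 exonic bases of Angpt1. It had 0 to 12 counts per library, against at least 127 for Angpt1.

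Angpt2 did not share the lower level. Angpt2 (ENSMUSG00000031465.6, chromosome 8, 18690263 to 18741562, minus strand, inside Mcph1 on the other strand) had 60.4, 64.8 and 81.1 CPM in the CTRL mice and 71.4, 88.7 and 76.1 CPM in the RbpjΔEC mice. CTRL 3 lay within the range of the RbpjΔEC libraries, so the groups overlapped, and the means of 68.8 ± 10.9 and 78.7 ± 8.94 CPM (SD, n = 3) differed by less than the SD of CTRL. The log2 fold change was 0.19 (standard error 0.117), from 0.10 to 0.33 without each library in turn.
The balance of the ligands therefore differed within each library, a ratio that does not depend on how libraries are scaled. Per kb of exon, the ratio of Angpt2 to Angpt1 was 13.6, 10.1 and 13.9 in the CTRL mice and 30.7, 41.3 and 27.6 in the RbpjΔEC mice. Every RbpjΔEC library was above every CTRL library, with means of 33.2 ± 7.21 and 12.6 ± 2.10 (SD, n = 3). On the log2 scale the ratio was 1.40 higher in RbpjΔEC, between 1.23 and 1.52 without each library in turn. Of this, the lower Angpt1 made up the larger share, and the mural markers above were also lower in RbpjΔEC.

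**Figure D2:**
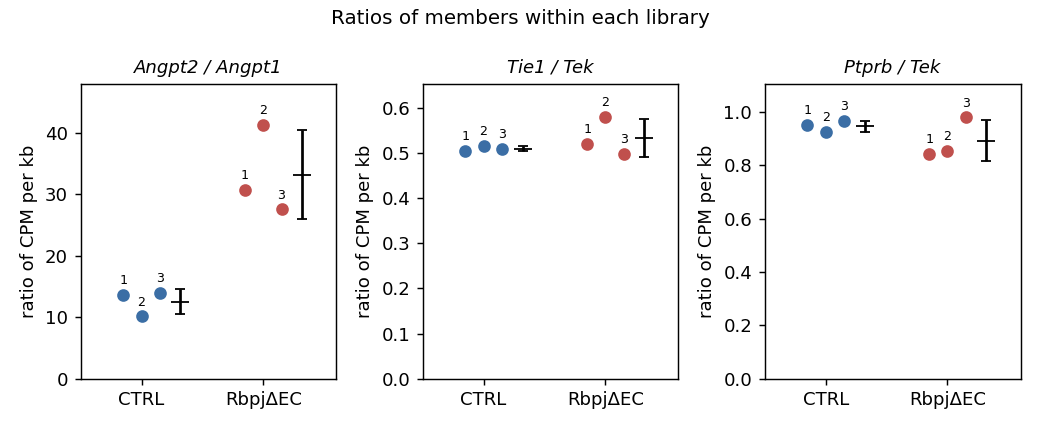
Ratio of CPM per kb for pairs of genes within each library, with points numbered by replicate and bars for the mean ± SD (n = 3). Angpt2 to Angpt1 lies between 10.1 and 13.9 in CTRL and between 27.6 and 41.3 in RbpjΔEC, while Tie1 to Tek and Ptprb to Tek overlap between the groups.

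The receptors showed small differences. Tek (ENSMUSG00000006386.15, chromosome 4, 94739289 to 94874976, plus strand) had 2041, 1836 and 2004 CPM in the CTRL mice and 1820, 1760 and 1680 CPM in the RbpjΔEC mice. The groups did not overlap, but RbpjΔEC 1 lay only just below CTRL 2. The means were 1960 ± 109.4 and 1753 ± 70.3 CPM (SD, n = 3), a ratio of 0.894 and a log2 fold change of -0.16 (standard error 0.0762), between -0.21 and -0.13 without each library in turn.
Tie1 (ENSMUSG00000033191.14, chromosome 4, 118471191 to 118490061, minus strand) had 1075, 988.0 and 1063 CPM in CTRL and 986.3, 1063 and 873.0 CPM in RbpjΔEC. Here the groups overlapped, since RbpjΔEC 2 reached the level of CTRL 3, and RbpjΔEC 3 was the lowest of the 6. The log2 fold change of -0.097 (standard error 0.0845) was -0.024 without RbpjΔEC 3 and -0.16 without RbpjΔEC 2.
The paired receptors kept close proportions. Per kb of exon, Tie1 came to 0.505, 0.516 and 0.508 of Tek in CTRL and to 0.519, 0.579 and 0.498 of Tek in RbpjΔEC. The SD of this ratio was 0.00566 in CTRL and 0.0420 in RbpjΔEC, where RbpjΔEC 2 was the highest library, and the groups overlapped.

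Ptprb, the phosphatase that acts on Tek, was the most abundant of the 6 by read count. Ptprb (ENSMUSG00000020154.10, chromosome 10, 116275523 to 116389535, plus strand) had 5488, 4807 and 5478 CPM in the CTRL mice and 4343, 4253 and 4657 CPM in the RbpjΔEC mice. Every RbpjΔEC library was below every CTRL library, with means of 4418 ± 212.0 and 5258 ± 390.2 CPM (SD, n = 3). Its log2 fold change was -0.25 (standard error 0.0847), between -0.32 and -0.22 without each library in turn. Relative to Tek, Ptprb was 0.950, 0.925 and 0.966 per kb in CTRL and 0.843, 0.854 and 0.980 per kb in RbpjΔEC. RbpjΔEC 3 was the highest of the 6 libraries by this ratio, so that the groups overlapped.
Svep1 was the least abundant of the 6 by read count, and its groups overlapped. Svep1 (ENSMUSG00000028369.15, chromosome 4, 58042442 to 58206859, minus strand) had 39, 55 and 87 counts in the CTRL mice and 61, 31 and 47 counts in the RbpjΔEC mice, or 0.973, 1.16 and 2.06 CPM against 1.36, 0.739 and 1.17 CPM. Counting error alone (exact Poisson 95% interval) ran from 0.502 to 1.05 CPM for the lowest library and from 1.65 to 2.54 CPM for CTRL 3. The log2 fold change of -0.36 had a standard error of 0.377, and without CTRL 3 it was 0.029, so that no direction was detectable in these libraries. Of 7 markers of lymphatic ECs, the vessels where Svep1 is best known, 6 were tested and 4 had negative values (median -0.94), with 0 past the threshold of the edgeR QL test (4 lower, or 66.7%, and 0 higher without adjustment, against 8.62% and 8.88% over all tested genes). Their summed level overlapped, with 632.8 to 737.4 CPM in CTRL and 654.9 to 689.3 CPM in RbpjΔEC. Flt4, which blood ECs of the kidney express as well, made up most of this sum, with 633.5 CPM in CTRL and 639.8 CPM in RbpjΔEC. Without Flt4, a split chosen after the values were seen, the sum was 35.8 to 57.9 CPM in CTRL and 30.0 to 31.0 CPM in RbpjΔEC, without overlap and with a ratio of means of 0.614. Mmrn1 had means of 21.8 and 9.77 CPM, while Prox1, the factor that defines lymphatic ECs, had 9.00 and 10.1 CPM. The part of lymphatic ECs in the Svep1 values was not tested. The annotation also places Gm26889 on the other strand over 2244 exonic bases of Svep1, and its counts were not analysed here.

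**Figure D3:**
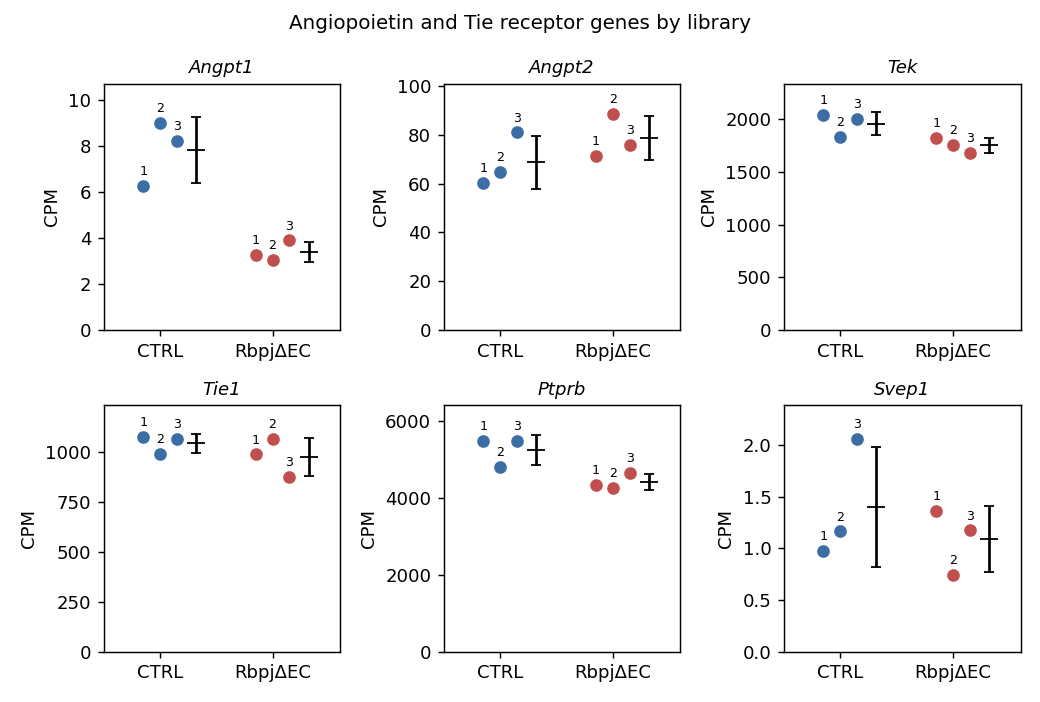
CPM of the 6 genes by library, with points numbered by replicate, CTRL in blue, RbpjΔEC in red and bars for the mean ± SD (n = 3), each axis starting at 0. Angpt1, Tek and Ptprb are lower in RbpjΔEC without overlap, and Angpt2, Tie1 and Svep1 overlap.

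In all, 3 of the 6 genes (Angpt1, Tek and Ptprb) were lower without overlap between the groups and 0 were higher without overlap. Over all 18438 tested genes, 11.6% were lower and 11.4% higher in this way. The choice of the genes used this contrast, so nothing is read from the count.

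The size of the receptor differences depended on the reference. The 12 pan-endothelial markers summed to 20879 ± 1009 CPM in CTRL and 17971 ± 60.0 CPM in RbpjΔEC (SD, n = 3), a ratio of means of 0.861. Kdr (5994 CPM in CTRL and 4960 CPM in RbpjΔEC) and Flt1 (4713 and 3988 CPM) were the largest parts of this sum. The median log2 fold change of the 12 was -0.18. Of them 7 were below 0, among them Kdr, Flt1, Eng and Cdh5, and 5 above, among them Egfl7 (0.22) and Erg (0.056). Of the 12 markers, 0 passed in the edgeR QL test (4 lower, or 33.3%, and 1 higher, or 8.33%, without adjustment, against 8.62% and 8.88% over all tested genes). Taken per 1000 CPM of these markers, a reference chosen after the values were seen, Tek had 96.1, 93.0 and 92.6 in the CTRL mice and 100.9, 98.1 and 93.7 in the RbpjΔEC mice. Its groups then overlapped and its log2 difference turned to 0.055. Ptprb moved to -0.034 and Tie1 to 0.11 on the log2 scale, and both overlapped as well. Angpt1 remained lower in every RbpjΔEC library by this reference, with a log2 difference of -0.98. Angpt2 had 2.84, 3.28 and 3.74 per 1000 in CTRL and 3.96, 4.94 and 4.24 per 1000 in RbpjΔEC, without overlap and 0.42 higher on the log2 scale.

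**Figure D4:**
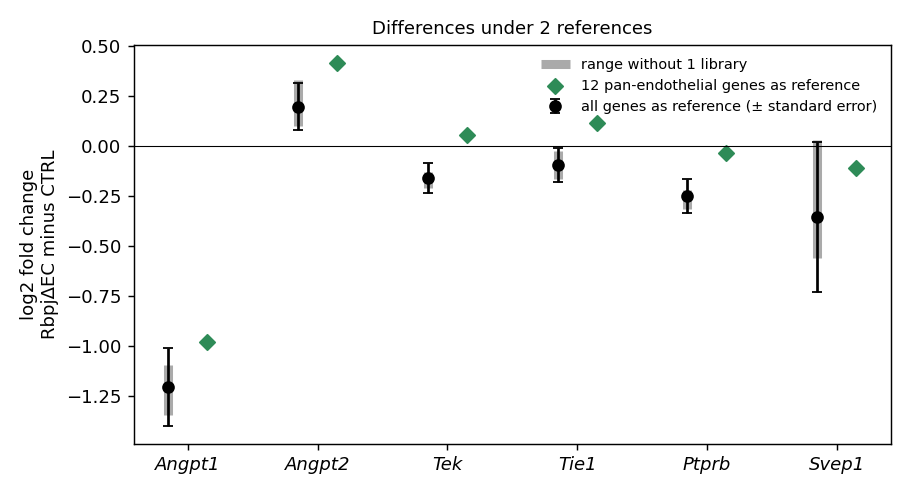
Log2 fold change of each gene (RbpjΔEC minus CTRL) with all tested genes as the reference (black, ± standard error, with a grey bar for the range without 1 library) and with the 12 pan-endothelial markers as the reference (green). Tek, Tie1 and Ptprb move from between -0.25 and -0.097 to between -0.034 and 0.11, while Angpt1 moves from -1.20 to -0.98.

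Among the other genes of the pathway, 1 passed the test, and more were lower than higher without adjustment. Of 67 genes on 5 lists, 63 were tested, and 1 fell and 0 rose at an adjusted p under 0.05 (edgeR QL test, adjusted over all tested genes), against 0.559% that fell and 0.575% that rose over all tested genes. Without adjustment, 13 were lower (20.6%) and 4 higher (6.35%) at a p under 0.05, against 8.62% and 8.88% over all tested genes. DESeq2's Wald test on all genes with a count called 5 lower and 0 higher at an adjusted p under 0.05, against 0.840% and 0.684% of the 38324 genes it tested. On the genes of the edgeR fit, an alternative added after the data were seen, it called 7 lower and 0 higher, against 2.77% and 2.35%. Their median log2 fold change was -0.046, against 0.01 over all tested genes.
Among 28 genes of signalling close to the receptor, which carry the signal through adaptors, the kinases PI3K, AKT and ERK and the FOXO factors, 0 passed in the edgeR QL test, and 3 were lower (10.7%) and 2 higher (7.14%) without adjustment, near the 8.62% and 8.88% over all tested genes. Mapk3, the kinase ERK1, had a log2 fold change of -0.32 (edgeR QL adjusted p = 0.0664, and 0.0288 without CTRL 2; DESeq2 Wald adjusted p = 0.0241), Grb14, an adaptor that binds Tek, -0.75 (edgeR QL adjusted p = 0.104, DESeq2 Wald adjusted p = 0.0243 on the genes of the edgeR fit) and Shc1, another adaptor, 0.22 (edgeR QL adjusted p = 0.138). Tnip2 had a log2 fold change of 0.27. The ligand family had 4 tested genes of 8, with 0 past the threshold of the edgeR QL test and 0 without adjustment, and Angpt4, the remaining angiopoietin, had 0.583 CPM in CTRL and 0.297 CPM in RbpjΔEC with overlap.
The 10 genes of surface partners and sheddases, integrins and proteases that bind or cut the Tie receptors, had a median of -0.19, 9 of them below 0, against 48.9% of all tested genes, and 0 past the threshold of the edgeR QL test (3 lower and 0 higher without adjustment, against 8.62% and 8.88% of all tested genes). Itgb1, the integrin beta 1 chain, had 933.5 CPM in CTRL and 739.9 CPM in RbpjΔEC, a log2 fold change of -0.34 (edgeR QL adjusted p = 0.0610, and 0.0245 without CTRL 2; DESeq2 Wald adjusted p = 0.00475). Timp3, an inhibitor of sheddases, had -0.30 (DESeq2 Wald adjusted p = 0.0300, and edgeR QL adjusted p = 0.0384 without RbpjΔEC 3), Adam17, a sheddase, -0.19, Cdh5, the cadherin of endothelial junctions, -0.19 and Mmp14, a membrane protease, -0.27.
Of 11 transcription factors with known action on Tek or Angpt2, 0 passed in the edgeR QL test, and 2 were lower (18.2%) and 0 higher without adjustment, against 8.62% and 8.88% over all tested genes. Gata3 had 5.69 CPM in CTRL and 1.95 CPM in RbpjΔEC, a log2 fold change of -1.55 (edgeR QL adjusted p = 0.142, DESeq2 Wald adjusted p = 0.00378). RbpjΔEC 3 stood apart for Gata3, with 3.67 CPM against 1.09 and 1.10 CPM in the other RbpjΔEC libraries, and without it the log2 fold change was -2.37 (edgeR QL adjusted p = 0.000966). With the replicate number as a block it was -1.75 (edgeR QL adjusted p = 0.0346). Epas1, the hypoxia factor HIF-2 alpha, had -0.28 (DESeq2 Wald adjusted p = 0.0376 on the genes of the edgeR fit). Foxc2, Erg and Ets1 had values of -0.14, 0.056 and 0.052.
The list of 10 genes stored in or released from Weibel-Palade bodies held the gene that fell, and 5 of the 10 were lower and 2 higher without adjustment, against 8.62% and 8.88% over all tested genes. Vwf, the clotting protein that forms these bodies and is stored there with Angpt2, had 57.4 CPM in CTRL and 34.1 CPM in RbpjΔEC. Its log2 fold change was -0.75 (edgeR QL adjusted p = 0.00691). Without RbpjΔEC 1 it was -0.73 and did not pass (edgeR QL adjusted p = 0.0635). Ece1, which cleaves endothelin, had -0.24, and the release factors Stxbp5 and Unc13d 0.21 and 0.75, none past the threshold of the edgeR QL test. Plat, the tissue plasminogen activator, had -0.77 (edgeR QL adjusted p = 0.185, and 0.00290 without RbpjΔEC 3). Plat is also among the 5 markers of glomerular ECs, all of which had negative values (median -0.65). Vwf and Angpt2 thus had log2 fold changes on opposite sides of 0. The difference between them was not tested.

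**Figure D5:**
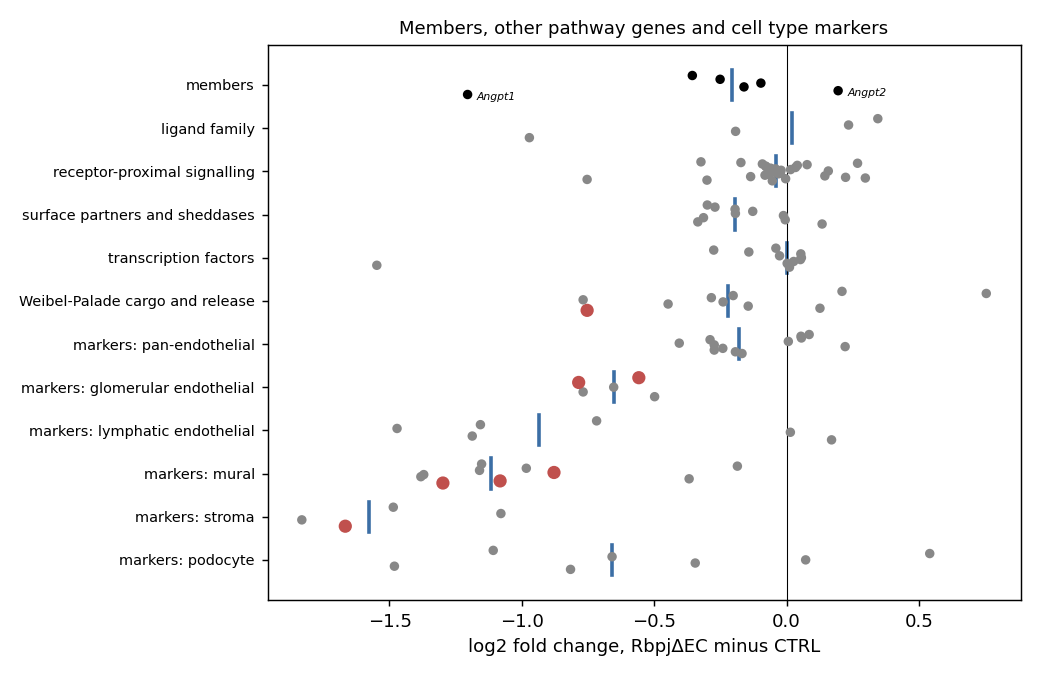
Log2 fold change (RbpjΔEC minus CTRL) of each tested gene by list, with the members in black, genes past an adjusted p of 0.05 in the edgeR QL test in red, others in grey and the median of each list as a blue line. Angpt1 is at -1.20 and Angpt2 is to the right of 0. The medians are -1.58 for stroma, -1.12 for mural, -0.94 for lymphatic, -0.66 for podocyte, -0.65 for glomerular and -0.18 for pan-endothelial markers. Among the 5 lists of pathway genes only Vwf is past the threshold of the edgeR QL test.

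By pattern over the 6 libraries, each gene set relative to its own CTRL mean, the tested genes closest to Angpt1 (mean of at least 5 CPM, root mean square difference in log2 CPM) were Pde3a (0.181), a phosphodiesterase, Slc8a1 (0.184), the sodium-calcium exchanger, and Ace (0.196), which makes angiotensin II. Their log2 fold changes were -0.95, -1.08 and -1.03. Closest to Ptprb was Ece1 at 0.0177, followed by Mmut (0.0289) and Ghitm (0.0290). Closest to Tek were Acsl3 (0.0164), Vezf1 (0.0196) and Wdr61 (0.0203). These distances are a description of 6 libraries.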

How the data were processed

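The authors trimmed reads with Trim Galore 0.6.4, aligned them with STAR 2.6.1d and counted them with featureCounts (Subread 1.6.4) in nf-core/rnaseq, on GRCm38.p6 with GENCODE M25, and deposited raw counts per gene. The strand setting of the counting is not given in the sources used here. Here, groups came from the sample titles. Counts were analysed in R 4.3.3 with edgeR 4.0.16 (filterByExpr, TMM, robust quasi-likelihood fit, Benjamini-Hochberg over 18438 genes, threshold 0.05), and DESeq2 1.42.0 (all 38324 genes with a count, without its outlier and independent filtering, and again on the genes of the edgeR fit) was an alternative. CPM uses TMM-scaled library sizes. Standard errors are the log2 fold change over the root of F. On simulated counts edgeR recovered 192 of 200 changed genes and called 20 of 17836 others. The changed genes were drawn from those with higher counts. Their simulated differences were larger than those of Tek, Tie1, Ptprb and Vwf, so the recovery does not extend to differences of that size. Positions and exonic lengths are from GENCODE M21 (GRCm38) and can differ from M25. Depth gives 3 counts as 0.0634 to 0.0749 CPM, and intervals cover counting error only. P-values measure the spread between these 3 and 3 mice.

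The members and all lists (5 pathway lists and markers of pan-endothelial, glomerular endothelial, lymphatic endothelial, mural, podocyte, stroma, tubule, macrophage, B and T cells) were chosen with earlier results of these data known. Named genes are the members, Rbpj and Hey1, for each list its 5 tested genes of lowest p, marker genes, the 3 genes closest in pattern to each member and genes overlapping a member. Single values of some genes that this rule names are not reported here. Alternatives were other scaling factors and filters, DESeq2, another prior count or gene length, the replicate number as a block, and fits without each library.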

Additional observations from a re-analysis of the deposited data

How the results depend on the processing

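The 6 log2 fold changes of the members kept their sign under each scaling, filter, test, prior count and the block, and moved by less than the spread of the libraries. Across the 15 settings, 85 of 90 values did so. The exceptions were Svep1, which was between -0.56 and 0.029 without 1 library in turn and changed sign without CTRL 3, and 4 values relative to the pan-endothelial markers, a reference added after the data were seen (Tek 0.055 and Tie1 0.11, both with changed sign, Ptprb -0.034 and Angpt2 0.42). The ratio of Tie1 to Tek on the log2 scale was between -0.0030 (without RbpjΔEC 2) and 0.11 without 1 library. The cause of these was not tested.

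The number of pathway genes called lower was 1. It was 10 with no low-count filter (with 1 higher), 5 with DESeq2's Wald test on all genes with a count, 7 with that test on the genes of the edgeR fit (added after the data were seen), and 2 with the replicate number as a block. Without 1 library it was between 0 and 4, with 3 without CTRL 2, 0 without RbpjΔEC 1 and 4 without RbpjΔEC 3. Over all tested genes the count of 209 became 1436 with no filter, 584 and 944 with these DESeq2 fits and 344 with the block. Without 1 library it was between 21 and 700, namely 54, 700 and 24 without CTRL 1 to 3 and 21, 48 and 521 without RbpjΔEC 1 to 3.

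The replicate numbers showed no sign of pairing the mice. The deviations of same-numbered libraries had correlations of 0.0231, 0.00916 and 0.00544, and no CTRL library correlated best with its own number. With 3 libraries per group this check cannot exclude pairing. Svep1 had 31 to 87 counts per library. The counting error of Tek, Tie1 and Ptprb is far below the spread between mice.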

Other observations

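Markers of other cell types that could be in the sort were measured beside the members. The 5 markers of glomerular ECs all had negative log2 fold changes (median -0.65), and 2 fell in the edgeR QL test at an adjusted p under 0.05, Gata5 and Tbx3, against 0.559% of all tested genes (4 lower and 0 higher without adjustment, against 8.62% and 8.88% of all tested genes). Ehd3 had 1036 CPM in CTRL and 733.2 CPM in RbpjΔEC (log2 fold change -0.50, edgeR QL adjusted p = 0.0611). Their sum was 1822 to 2313 CPM in CTRL and 1251 to 1638 CPM in RbpjΔEC. Of the 7 tubule markers, 4 had negative and 3 had positive values, with a median of -1.19. The edgeR QL test put 0 of them past the threshold (2 lower and 0 higher without adjustment, against 8.62% and 8.88% of all tested genes). Their sum overlapped (284.8 to 417.3 and 116.8 to 422.2 CPM, the highest being RbpjΔEC 3). Of 4 tested macrophage markers Cd68 rose in the edgeR QL test, against 0.575% of all tested genes, and the other 3 had negative values (1 higher and 1 lower of the 4 without adjustment, against 8.88% and 8.62%). B cell markers had 1 tested gene (Cd79a, log2 fold change 0.12) and T cell markers had 0. The 4 listed B cell markers together were low, with 0.676 to 0.823 CPM in CTRL and 0.245 to 0.599 CPM in RbpjΔEC, lower without overlap.

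The genes closest in pattern to Angpt2 were Snrpd2, Gstt2 and Snrpc (root mean square differences of 0.0423, 0.0634 and 0.0672 in log2 CPM), those closest to Tie1 were Yipf3, Bub3 and Tm9sf4 (0.0267, 0.0297 and 0.0298), and those closest to Svep1 were Thtpa, Asb8 and Bmx (0.222, 0.224 and 0.226). Mcph1, which spans Angpt2 on the other strand, had 9.20 CPM in CTRL and 8.75 CPM in RbpjΔEC. Inside Ptprb on the same strand, Gm47625 had 7.45 and 9.85 CPM and the small nucleolar RNA Gm26495 had 0.515 and 0.978 CPM.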
